A study of Homo sapiens with 16 samples.

Results

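The genes described here are 10 targets of the ERK pathway that are read as its feedback and output: DUSP4, DUSP5, DUSP6, SPRY2, SPRY4, SPRED1, SPRED2, ETV4, ETV5 and PHLDA1. They were taken by name from a table of 26258 genes, after its Entrez gene numbers had been matched to symbols, and all 10 were among the 15019 genes with at least 1 CPM (read counts scaled to a common library total) in at least 2 libraries. Huh7 and Hep3B are human cell lines of hepatocellular carcinoma (HCC). For each line RNA was sequenced from parental cells, from cells labeled DMSO, and from the Sorafenib-resistant IR and CR cells, which had been raised in increasing concentrations and in a constantly high concentration of the drug, respectively. This gave 8 groups of 2 libraries. IR and CR libraries carry a treatment label of 7 μM Sorafenib, and parental and DMSO libraries are labeled untreated. Exposure to the drug and acquired resistance therefore cannot be told apart in any comparison of IR or CR cells with parental or DMSO cells. How the DMSO cells were kept is not given in the sources used here, so what distinguished them from the parental cells is not known here. No source used here says whether the 2 libraries of a resistant group come from separate selections, and the growth and treatment notes name only the Huh7 lines.

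The ERK pathway carries signals from growth factor receptors through RAS, RAF, MEK and ERK kinases into the nucleus. There ERK raises a set of genes whose products turn the signal down again, so that the transcripts of these genes are widely used as a readout of pathway output. DUSP4, DUSP5 and DUSP6 encode phosphatases that remove the activating phosphates from MAP kinases, DUSP6 in the cytoplasm with ERK as its main substrate and DUSP4 and DUSP5 in the nucleus. SPRY2, SPRY4, SPRED1 and SPRED2 encode Sprouty and Spred proteins, which restrain the pathway at the level of RAS and RAF. ETV4 and ETV5 encode ETS transcription factors of the PEA3 group, and PHLDA1 encodes a pleckstrin homology domain protein that is induced by mitogens. Sorafenib is a kinase inhibitor whose targets include RAF kinases and several growth factor receptors.

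Libraries held 46613302 to 76860251 reads, and no member fell below 322 reads in any library (DUSP6 in Huh7-IR replicate 1), so counting error was small beside the spread between replicates. Replicates of a group correlated across genes with r of 0.971 to 0.995, and the replicates of Huh7 DMSO and of Huh7-IR cells lay furthest apart, with a standard deviation of their difference of 0.571 and 0.566 on the log2 scale against 0.236 to 0.310 in the other groups. All 10 hepatocyte markers were detected in every group, but their summed level differed widely. It was 11151 to 16751 CPM in Huh7 parental, 115 to 463 CPM in Huh7-IR and 1408 to 2839 CPM in Huh7-CR cells, and 17522 to 21776 CPM in Hep3B parental, 3634 to 10585 CPM in Hep3B-IR and 1332 to 2180 CPM in Hep3B-CR cells. DMSO cells had the highest sums, with 23247 to 28512 CPM in Huh7 and 31100 to 37060 CPM in Hep3B. Summed fibroblast markers (5 genes) ranged from 23.3 to 87.0 CPM in Hep3B and from 283 to 673 CPM in Huh7 libraries, with DCN at 0 in Hep3B-CR cells. Members of this list moved in opposite directions in Huh7-IR cells, where COL1A1 was higher (60.7 and 54.4 CPM against 1.02 and 0.563 CPM in parental libraries), as were COL1A2 and PDGFRB, and LUM was lower (31.9 and 48.9 CPM against 277 and 329 CPM). Endothelial markers (4 genes) summed to at most 6.35 CPM, with CDH5 or TEK at 0 in 6 groups, and blood cell markers (5 genes) summed to 10.8 to 113 CPM, with CD3E at 0 in 5 groups. The blood cell list also moved both ways in Huh7-IR cells, with 1 marker higher and 3 lower. The higher one was CD68, at 47.0 and 71.9 CPM against 5.47 and 2.58 CPM in Huh7 parental libraries. CD68 was higher in all 4 resistant groups. In Hep3B-IR cells 1 hepatocyte marker was higher and 4 were lower. The part of these differences in the values below was not tested. In bulk RNA, fewer cells of a type and less RNA per cell cannot be told apart.

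The feedback genes did not move as a block in resistant Huh7 cells, where calls went both ways. In resistant Hep3B cells every call was higher. In Huh7-IR cells 6 of the 10 differed from parental cells by limma at an adjusted p under 0.05, where 57.5% of all genes tested did, with 2 higher (SPRY2 and SPRED1; 36% of all genes) and 4 lower (DUSP4, DUSP6, SPRY4 and ETV4; 21.5% of all genes). The same 2 genes were higher and the same 4 lower in Huh7-CR cells, where 41.3% of all genes were called, 24.5% higher and 16.8% lower. In Hep3B-IR cells 7 members were higher (DUSP4, DUSP5, SPRY2, SPRY4, SPRED1, ETV4 and ETV5) against a background of 32% called and 18.3% higher. In Hep3B-CR cells 5 were higher (DUSP4, DUSP5, SPRY4, ETV4 and ETV5) against 38.8% called and 23.6% higher. None was lower in either resistant Hep3B line by limma, edgeR or DESeq2 (13.7% of all genes in IR and 15.2% in CR cells by limma), and 0 were lower at an unadjusted p under 0.05. Leaving out 1 library gave 6 to 7 (IR) and 5 to 6 (CR) members in Huh7 and 4 to 5 (IR) and 3 to 6 (CR) in Hep3B. Removing IR replicate 1 or parental replicate 2 gave the 4 of Hep3B-IR, and removing CR replicate 2 or parental replicate 2 the 3 of Hep3B-CR. The share of all genes called in the fits without 1 library is not given for these comparisons. A loss of calls among the members therefore cannot be told from a general loss. Both resistant groups of a line share 1 set of parental libraries, so their calls are not independent. The study's methods call the RNA samples biological replicates but state another number per group than the 2 analysed here. Nothing says that these came from separate cultures, so the p-values measure the spread between these libraries, part of which may be technical. For each gene that spread was pooled over all 8 groups, although the replicates of Huh7-IR and Huh7 DMSO cells lay further apart than the others.

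**Figure D1:**
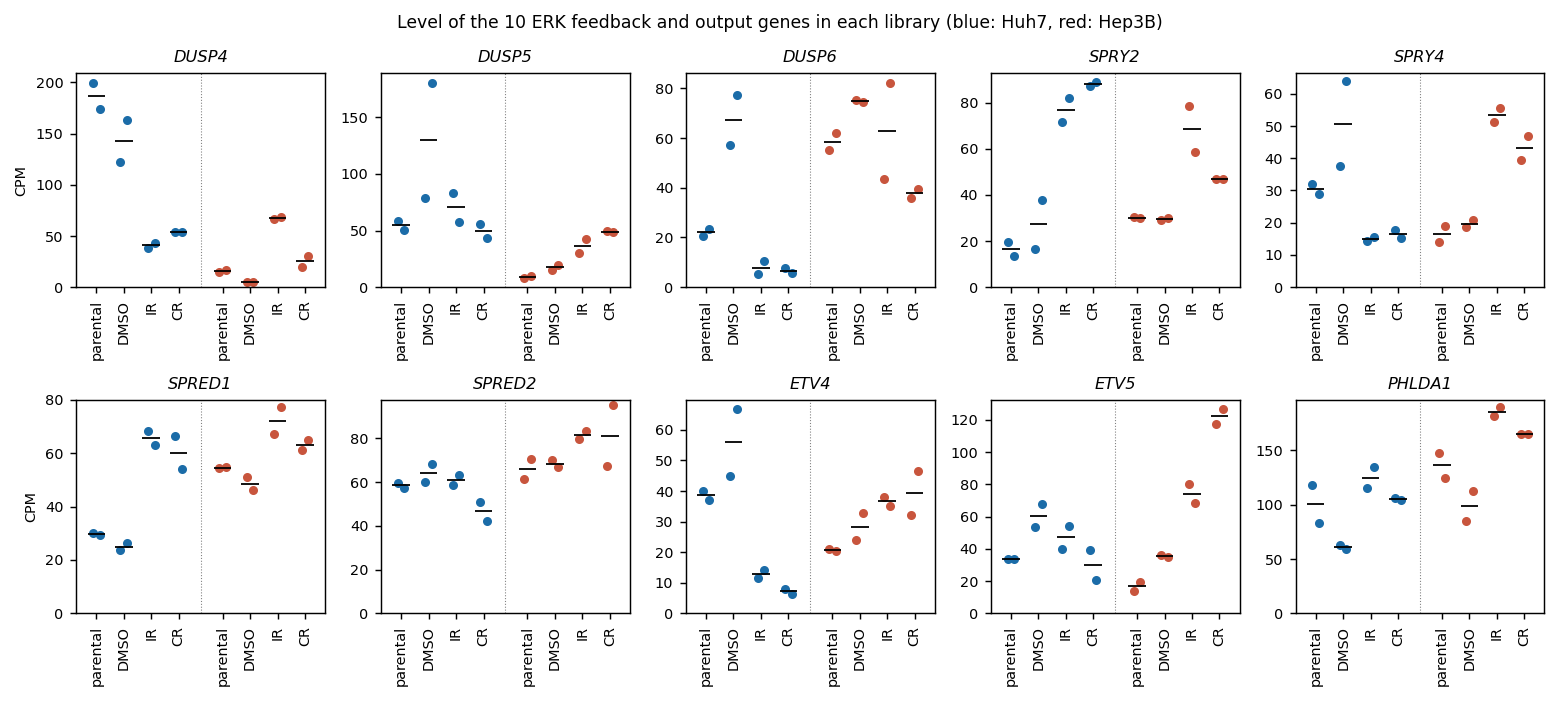
Level of each of the 10 genes in CPM (linear axis from 0) in the 16 libraries, with a point per library, a black line at the mean of the 2 replicates, Huh7 in blue and Hep3B in red. DUSP4 lay at 174 to 199 CPM in Huh7 parental and at 38.2 to 54.4 CPM in resistant Huh7 libraries, while SPRY2 went from 13.4 to 19.8 CPM to 71.8 to 89.0 CPM in the same cells.

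The median member differed from parental cells by 0.19 (IR) and -0.28 (CR) in Huh7 and by 0.96 (IR) and 0.62 (CR) in Hep3B on the log2(CPM + 1) scale, beside medians of 0.19, 0.07, 0.06 and 0.11 over all genes tested. Higher genes made up 62.5%, 59.2%, 57.2% and 60.9% of all genes called in these comparisons. After quantile normalization they made up 49.4%, 48.3%, 47.8% and 49.0%, and the all-gene median of the Huh7-IR comparison became 0.0035 in place of 0.19. With TMM factors it became 0.04. No called change of a member in these 4 comparisons turned its direction under either scaling.

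DUSP4 and DUSP6, both phosphatase genes, were lower in resistant Huh7 cells, while in resistant Hep3B cells DUSP4 and DUSP5 were higher. DUSP4 (Entrez 1846, chr8:29190581-29208201, minus strand, 4 exons, GRCh37) stood at 199 and 174 CPM in Huh7 parental libraries, 38.2 and 43.6 CPM in Huh7-IR and 53.7 and 54.4 CPM in Huh7-CR libraries. Hep3B parental libraries held 14.7 and 16.9 CPM of it, Hep3B-IR libraries 67.0 and 68.9 CPM and Hep3B-CR libraries 19.9 and 30.6 CPM. Every resistant Huh7 library lay below both parental ones, and every resistant Hep3B library lay above both. On the log2 scale DUSP4 fell by 2.16 ± 0.19 (SE) in Huh7-IR (adjusted p = 2.69e-06). In Huh7-CR cells it fell by 1.77 ± 0.19 (adjusted p = 2.2e-05). It rose by 2.04 ± 0.19 in Hep3B-IR (adjusted p = 1.26e-05) and by 0.61 ± 0.19 in Hep3B-CR cells (adjusted p = 0.0242). The last call was lost with TMM factors (adjusted p = 0.0612), after quantile normalization (0.107), without Hep3B-CR replicate 2 (0.248), and without parental replicate 1 (0.132) or 2 (0.0563). The level in Hep3B-IR exceeded that in Hep3B-CR cells by 1.42 ± 0.19, the only member called between these cells (adjusted p = 0.000663; 13.7% of all genes called). In the order of the 8 groups, from Huh7 parental cells down to Hep3B DMSO cells, no neighbouring groups overlapped for DUSP4.

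DUSP5 (Entrez 1847, chr10:112257665-112271291, plus strand, 4 exons, GRCh37) had 58.1 and 50.8 CPM in Huh7 parental, 83.4 and 57.8 CPM in Huh7-IR and 55.7 and 43.3 CPM in Huh7-CR libraries, and both resistant groups overlapped the parental one. The 95% interval of the log2 change was -0.36 to 1.05 (Huh7-IR) and -0.85 to 0.56 (Huh7-CR). In Hep3B it had 7.69 and 9.85 CPM in parental, 30.6 and 43.0 CPM in IR and 49.4 and 48.7 CPM in CR libraries. It rose by 1.94 ± 0.32 in Hep3B-IR (adjusted p = 0.000753) and by 2.37 ± 0.32 in Hep3B-CR cells (adjusted p = 0.000165), which brought Hep3B-CR libraries into the range of the Huh7-CR libraries.

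DUSP6 (Entrez 1848, chr12:89741012-89746278, minus strand, 3 exons, GRCh37) stood at 20.7 and 23.4 CPM in Huh7 parental, 5.34 and 10.4 CPM in Huh7-IR and 7.53 and 5.69 CPM in Huh7-CR libraries, with no resistant library as high as a parental one. It fell by 1.44 ± 0.30 in Huh7-IR (adjusted p = 0.00149). DUSP6 fell by 1.61 ± 0.30 in Huh7-CR cells (adjusted p = 0.0012). Hep3B parental libraries had 55.0 and 61.9 CPM. The Hep3B-IR replicates, with 43.5 and 82.2 CPM, lay on either side of them, and Hep3B-CR libraries had 36.0 and 39.6 CPM. The log2 difference from parental cells was 0.04, with a 95% interval of -0.62 to 0.69, in Hep3B-IR and -0.62, with an interval of -1.27 to 0.04, in Hep3B-CR cells (adjusted p = 0.963 and 0.126). The estimate in Huh7-IR cells lay outside both intervals, but its own interval of -2.09 to -0.78 overlapped that of Hep3B-CR cells. Exons of DUSP6 share 1105 bases with a long noncoding gene on the opposite strand. How the counting treated strand is not given in the sources used here, so reads of both genes cannot be told apart.

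SPRY2 and SPRY4 encode proteins of 1 family and went opposite ways in Huh7. SPRY2 (Entrez 10253, chr13:80910111-80915261, minus strand, 2 exons, GRCh37) stood at 19.8 and 13.4 CPM in Huh7 parental, 71.8 and 82.2 CPM in Huh7-IR and 87.1 and 89.0 CPM in Huh7-CR libraries. It rose by 2.17 ± 0.29 in Huh7-IR (adjusted p = 6.2e-05). In Huh7-CR cells it rose by 2.36 ± 0.29 (adjusted p = 5.79e-05). In Hep3B it had 30.3 and 30.1 CPM in parental, 78.6 and 58.7 CPM in IR and 46.8 and 47.0 CPM in CR libraries. The rise of 1.14 ± 0.29 in Hep3B-IR cells passed the test (adjusted p = 0.0102) and was lost without IR replicate 1 (0.0956) or without parental replicate 2 (0.0578). The difference of 0.62 in Hep3B-CR cells did not pass it (adjusted p = 0.114), although both CR libraries lay above both parental ones. When the libraries of Hep3B were fitted alone, it passed (0.0099).

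SPRY4 (Entrez 81848, chr5:141689992-141706020, minus strand, 2 exons, GRCh37) stood at 32.1 and 28.9 CPM in Huh7 parental, 14.3 and 15.5 CPM in Huh7-IR and 17.6 and 15.3 CPM in Huh7-CR libraries. It fell by 0.99 ± 0.23 in Huh7-IR (adjusted p = 0.00258). In Huh7-CR cells it fell by 0.85 ± 0.23 (adjusted p = 0.00936). The call in Huh7-CR cells was lost with the Huh7 libraries fitted alone (0.0523), without CR replicate 2 (0.0651) and without parental replicate 1 (0.0601). In Hep3B it had 13.9 and 18.9 CPM in parental, 51.2 and 55.7 CPM in IR and 39.3 and 47.0 CPM in CR libraries, and it rose by 1.66 ± 0.23 (adjusted p = 0.000188) and 1.35 ± 0.23 (adjusted p = 0.00063). Huh7 parental cells thus had more SPRY4 than Hep3B parental cells, and resistant Huh7 cells had less of it than resistant Hep3B cells in every library.

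The bases before the transcription start are shown for DUSP6 and SPRY4, which were lower in resistant Huh7 cells, and for SPRY2, which was higher there. They are 250 bases of RefSeq sequence on GRCh38.p14, 5′ to 3′ on the gene's own strand and ending at the base before the annotated start (for SPRY2, the start furthest upstream of 3). The windows lie at chr12:89352502-89352751, chr5:142324248-142324497 and chr13:80341127-80341376, all on the minus strand, and capitals mark a match to the letters CCGGAA on either strand, the core bound by ETS factors such as ETV4 and ETV5.
DUSP6: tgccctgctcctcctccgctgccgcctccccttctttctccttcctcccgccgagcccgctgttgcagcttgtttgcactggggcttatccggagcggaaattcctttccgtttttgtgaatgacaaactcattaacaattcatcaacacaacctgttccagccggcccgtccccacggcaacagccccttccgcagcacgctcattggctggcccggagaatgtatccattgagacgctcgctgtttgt
SPRY4: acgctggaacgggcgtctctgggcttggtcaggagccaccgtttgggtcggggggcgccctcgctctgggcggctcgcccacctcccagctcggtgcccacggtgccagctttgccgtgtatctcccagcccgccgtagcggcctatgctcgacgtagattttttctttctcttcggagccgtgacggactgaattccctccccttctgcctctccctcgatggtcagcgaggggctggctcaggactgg
SPRY2: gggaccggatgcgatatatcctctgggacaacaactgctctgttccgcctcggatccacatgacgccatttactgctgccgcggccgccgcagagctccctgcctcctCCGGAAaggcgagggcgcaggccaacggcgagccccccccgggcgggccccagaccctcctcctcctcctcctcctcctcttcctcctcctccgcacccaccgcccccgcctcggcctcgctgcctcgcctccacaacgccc
Promoter sequences were held for 6 of the 10 members (these 3, SPRED1, SPRED2 and PHLDA1). The ETS core was matched in SPRY2, beginning 142 bases before the start, and in PHLDA1, beginning 89 bases before it, and 14.5% of all 35116 promoter windows of this length hold it. The AP-1 letters TGANTCA (6.57% of windows), the CRE letters TGACGTCA (1.65%) and the serum response element (1.16%) were matched in none of the 6 windows. No window held matches to more than 1 of these motifs, both strands were searched, and a match is a description of letters only.

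SPRED1 rose in both resistant Huh7 lines, as SPRY2 did, and SPRED2 was called in no comparison with parental cells. SPRED1 (Entrez 161742, chr15:38545037-38649450, plus strand, 7 exons, GRCh37) stood at 30.2 and 29.5 CPM in Huh7 parental, 68.3 and 62.8 CPM in Huh7-IR and 66.4 and 53.9 CPM in Huh7-CR libraries. It rose by 1.11 ± 0.13 in Huh7-IR (adjusted p = 2.79e-05). In the CR cells of this line it rose by 0.98 ± 0.13 (adjusted p = 0.000129). In Hep3B it had 54.3 and 54.7 CPM in parental, 67.0 and 77.3 CPM in IR and 61.1 and 64.7 CPM in CR libraries. The rise of 0.40 ± 0.13 in Hep3B-IR cells was near the threshold (adjusted p = 0.0408). It was lost under edgeR (0.0781), DESeq2 (0.0704) and TMM factors (0.0774), and without any 1 of the 4 libraries compared (0.0586 to 0.239). The difference in Hep3B-CR cells was 0.20, with a 95% interval of -0.09 to 0.50. SPRED2 (Entrez 200734, chr2:65537985-65659771, minus strand, 6 exons, GRCh37) ranged from 42.3 to 95.0 CPM over the 16 libraries, the narrowest range of the members relative to its level, and passed the test in none of the 4 comparisons (adjusted p of 0.127 to 0.791). Its interval for Huh7-IR cells was -0.29 to 0.41. The highest value, in Hep3B-CR replicate 2, stood against 67.3 CPM in replicate 1, and without that lower replicate the difference of 0.52 from parental cells passed (adjusted p = 0.0363).

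The PEA3 factors ETV4 and ETV5 also parted in Huh7 cells. ETV4 (Entrez 2118, chr17:41605212-41656988, minus strand, 13 exons, GRCh37) stood at 40.1 and 37.1 CPM in Huh7 parental, 11.5 and 14.1 CPM in Huh7-IR and 8.15 and 6.47 CPM in Huh7-CR libraries. It fell by 1.53 ± 0.23 in Huh7-IR (adjusted p = 0.000139). In Huh7-CR cells it fell by 2.26 ± 0.23 (adjusted p = 1.32e-05). It was the 1 member called between the resistant Huh7 lines, where 16% of all genes were, with 0.73 ± 0.23 more in IR than in CR cells (adjusted p = 0.0493), and that call was lost under edgeR (0.0715) and without any 1 of the 4 libraries (0.0644 to 0.255). In Hep3B it had 21.2 and 20.4 CPM in parental, 38.1 and 35.0 CPM in IR and 32.04 and 46.4 CPM in CR libraries. It rose by 0.79 ± 0.23 in IR (adjusted p = 0.0206) and by 0.86 ± 0.23 in CR cells (adjusted p = 0.0111). The call in Hep3B-IR cells was lost without any 1 of the 4 libraries (0.0598 to 0.114), and for CR cells it was lost on leaving out CR replicate 2 (0.116) or parental replicate 2 (0.0637). Against DMSO cells in place of parental cells the differences were 0.37 and 0.45 and did not pass (adjusted p = 0.228 and 0.144).

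ETV5 (Entrez 2119, chr3:185764103-185828107, minus strand, 13 exons, GRCh37) had the largest rise of any member over parental cells. Hep3B parental libraries held 13.9 and 19.7 CPM, Hep3B-IR libraries 80.3 and 68.3 CPM and Hep3B-CR libraries 118 and 127 CPM. The log2 change was 2.10 ± 0.26 in IR (adjusted p = 9.79e-05) and 2.81 ± 0.26 in CR cells (adjusted p = 1.08e-05). In Huh7 the levels were 33.7 and 33.9 CPM in parental, 40.2 and 54.0 CPM in IR and 39.5 and 20.7 CPM in CR libraries, and the intervals of the change were -0.11 to 1.02 and -0.80 to 0.33. ETV4 shares 68 exon bases with DHX8 on the opposite strand, and ETV5 shares 164 with DGKG on its own strand, which the deposited values may split.

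PHLDA1 (Entrez 22822, chr12:76419227-76425556, minus strand, 2 exons, GRCh37) was called in none of the 4 comparisons. It stood at 118 and 83.1 CPM in Huh7 parental, 115 and 135 CPM in Huh7-IR, 106 and 105 CPM in Huh7-CR, 148 and 125 CPM in Hep3B parental, 181 and 190 CPM in Hep3B-IR and 165 and 165 CPM in Hep3B-CR libraries. The largest difference, 0.45 in Hep3B-IR cells, had a 95% interval of 0.07 to 0.82 and an adjusted p of 0.0651. Without Huh7 parental replicate 1, the higher of the pair, Huh7-IR cells differed by 0.58 (adjusted p = 0.0199). Against DMSO cells PHLDA1 was higher in all 4 resistant lines, by 1.01 and 0.77 in Huh7 and by 0.92 and 0.75 in Hep3B for IR and CR, respectively (adjusted p = 0.000374, 0.00351, 0.00131 and 0.00462). Its exons share 553 bases with the antisense gene PHLDA1-AS1, and the strand setting of the counting is not given.

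**Figure D2:**
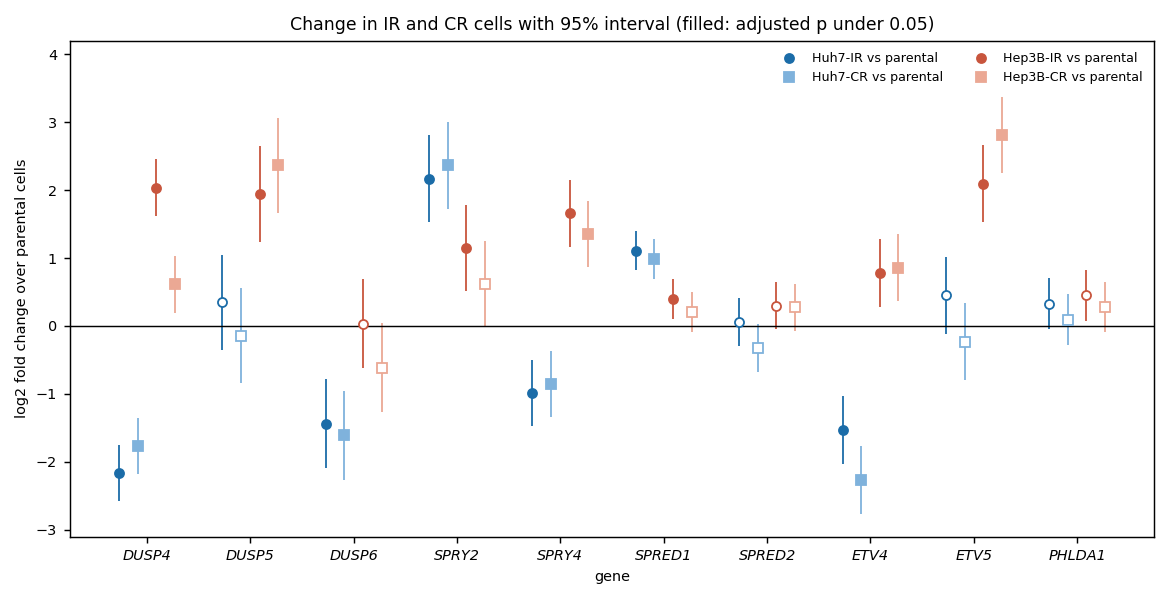
Log2 fold change (difference of log2(CPM + 1) means) of each gene in IR and CR cells against parental cells of the same line, with 95% intervals from limma; filled symbols passed at an adjusted p under 0.05. DUSP4, SPRY4 and ETV4 lie below 0 in both Huh7 comparisons and above 0 in both Hep3B comparisons.

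The change in resistant cells was then compared between the lines, as the average of the IR and CR changes in Huh7 minus that in Hep3B. This difference passed the test for 8 of the 10 members, against 31.6% of all genes tested, with 6 of them lower (14.2% of all genes) and 2 higher (17.4%) in Huh7. It was -3.29 ± 0.24 for DUSP4 (adjusted p = 1.49e-06), -2.72 ± 0.28 for ETV4 (2.96e-05), -2.42 ± 0.28 for SPRY4 (5.93e-05) and -2.34 ± 0.32 for ETV5 (0.00021). DUSP4, SPRY4 and ETV4 were lower in both resistant Huh7 lines and higher in both resistant Hep3B lines, so that they turned direction between the lines. As given above, the calls of DUSP4 in Hep3B-CR cells and of ETV4 in both resistant Hep3B groups were lost under some alternatives. Their changes kept their sign there. For ETV5 and DUSP5 (-2.05 ± 0.40, adjusted p = 0.00218) the difference came with a rise in Hep3B and no called change in Huh7, and for DUSP6 (-1.23 ± 0.37, adjusted p = 0.0237) with a fall in Huh7 and no called change in Hep3B. The DUSP6 difference was lost without any 1 of the 4 parental libraries (0.0529 to 0.0923). SPRY2 (1.39 ± 0.36, adjusted p = 0.0114) and SPRED1 (0.75 ± 0.17, adjusted p = 0.0049) rose further in Huh7 than in Hep3B. The SPRY2 difference was lost without Huh7 parental replicate 2 (0.0693) and was 0.76 against DMSO cells (0.125). SPRED2 (-0.42, interval -0.85 to 0.01) and PHLDA1 (-0.15, interval -0.61 to 0.30) did not pass.

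**Figure D3:**
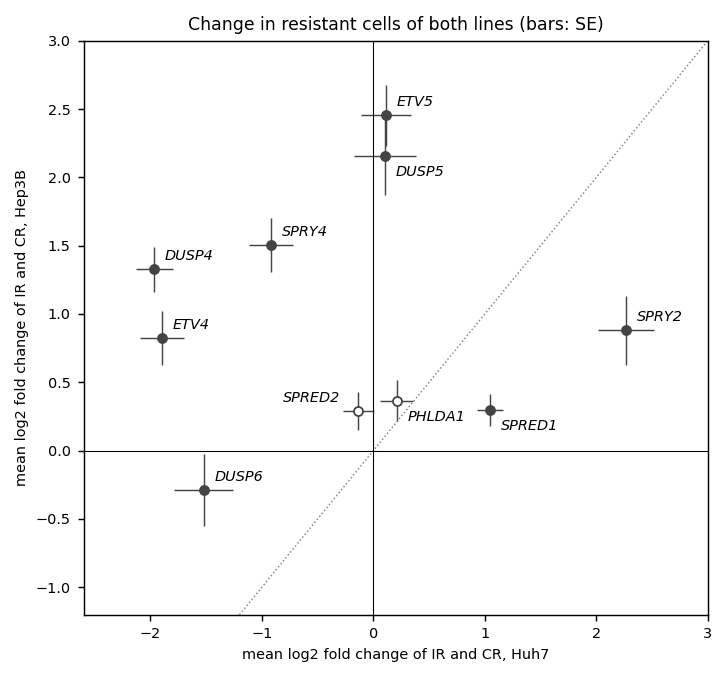
Average of the IR and CR log2 fold changes against parental cells in Huh7 (x axis) and Hep3B (y axis), with standard errors as bars; filled points are the 8 genes whose change differed between the lines, and the dotted line marks an equal change. DUSP4, SPRY4 and ETV4 lie in the upper left, at -1.97, -0.92 and -1.90 in Huh7 and 1.33, 1.504 and 0.82 in Hep3B.

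The parental cells of the lines differed in most of these genes. Between Huh7 and Hep3B parental cells 9 of the 10 members were called, where 50.3% of all genes were (22.5% higher and 27.8% lower in Huh7), with DUSP4, DUSP5, SPRY4, ETV4 and ETV5 higher in Huh7 and DUSP6, SPRY2, SPRED1 and PHLDA1 higher in Hep3B. The count was 8 under edgeR, DESeq2, TMM factors or quantile normalization, where PHLDA1 was lost (adjusted p = 0.0965, 0.0809, 0.0831 and 0.0613). Without a filter it was 7, and PHLDA1 (0.0688) and SPRY2 (0.0587) were lost. The widest gap was that of DUSP4, at 187 ± 17.6 CPM (SD) in Huh7 and 15.8 ± 1.55 CPM in Hep3B, a log2 difference of 3.48 ± 0.19 (SE; adjusted p = 3.4e-08). DUSP5 followed with 2.51 ± 0.32 (adjusted p = 4.36e-05) and DUSP6 with -1.37 ± 0.30 (adjusted p = 0.00243). All 5 members higher in Huh7 parental cells rose in both resistant Hep3B lines, and the comparison shares the Hep3B parental libraries with those changes. Without Hep3B parental replicate 1 the count was 5, and SPRY2, SPRY4, ETV5 and PHLDA1 were no longer called (0.0985, 0.0745, 0.0769 and 0.247). Per kilobase of the canonical transcript, DUSP4 had the highest level of the members in Huh7 parental cells (33.7 CPM per kb) and the lowest in Hep3B parental cells (2.85 CPM per kb), where PHLDA1 was highest (23.0 CPM per kb). In Huh7 parental cells the lowest was SPRED1, at 4.10 CPM per kb.

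DMSO cells differed from parental cells in 3 of these genes, DUSP6 and PHLDA1 in Huh7 and DUSP4 in Hep3B. Against parental cells 2 members were called in Huh7, where 5.18% of all genes were, 3.6% higher and 1.58% lower. DUSP6 stood at 57.3 and 77.3 CPM in Huh7 DMSO libraries and rose by 1.55 ± 0.30 (adjusted p = 0.017), and PHLDA1, at 63.1 and 59.7 CPM, fell by 0.68 ± 0.17 (adjusted p = 0.0427). In Hep3B 1 member was called, where 1.64% of all genes were, 1.11% higher and 0.533% lower. DUSP4, at 5.204 and 4.76 CPM, fell by 1.49 ± 0.19 (adjusted p = 0.0026). By the call rule of the study's methods (unadjusted p under 0.05 and a log2 change of at least 0.58) 5 members were called in Huh7 and 3 in Hep3B, against 14.5% and 8.06% of all genes, and the same rule called 2 members between IR and CR cells in either line, against 21% in Huh7 and 17.8% in Hep3B. The Huh7 DMSO replicates differed most in DUSP5 (79.2 and 180 CPM), SPRY2 (16.6 and 38.0 CPM) and SPRY4 (37.6 and 63.9 CPM), each higher in replicate 2. The count in Huh7 was 7 without DMSO replicate 1, 0 without DMSO replicate 2 or without parental replicate 1, and 1 without parental replicate 2. The share of all genes called moved with it, to 27% without DMSO replicate 1, 0.985% without DMSO replicate 2, 0.992% without parental replicate 1 and 1.36% without parental replicate 2. With all libraries 5 members had an unadjusted p under 0.05, and edgeR and DESeq2 called 2 and 4. ETV5 stood at 53.6 and 67.9 CPM in Huh7 DMSO and 36.2 and 34.8 CPM in Hep3B DMSO libraries, above every parental library of its line, without passing the test (adjusted p = 0.0856 and 0.0667). With DMSO libraries as the reference, 7 (IR) and 10 (CR) members were called in Huh7 and 7 (IR) and 7 (CR) in Hep3B, against 54.9%, 41.8%, 38.3% and 39.5% of all genes. In Hep3B the log2 differences for IR and CR were then 3.53 and 2.10 for DUSP4, 1.02 and 1.44 for DUSP5, and 1.04 and 1.76 for ETV5. DUSP6 then differed by -2.99 (IR) and -3.16 (CR) in Huh7, and it was also lower in Hep3B-CR cells, by -0.97 (adjusted p = 0.0227). Comparisons of resistant cells with DMSO cells were not repeated with a library left out, although the Huh7 DMSO replicates lay far apart.

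Close relatives of the members were looked at next, from a list of 13 genes of the same families of which 12 passed the filter. Higher and lower calls numbered 6 and 3 (Huh7-IR), 4 and 3 (Huh7-CR), 3 and 4 (Hep3B-IR) and 3 and 3 (Hep3B-CR), with medians of 0.50, 0.31, -0.03 and 0.11. Of all genes tested, 36%, 24.5%, 18.3% and 23.6% were higher in these comparisons, and 21.5%, 16.8%, 13.7% and 15.2% lower. The largest change belonged to DUSP9, another cytoplasmic phosphatase of ERK. It stood at 149 and 162 CPM in Huh7 parental, 1.64 and 3.43 CPM in Huh7-IR and 5.39 and 14.4 CPM in Huh7-CR libraries, and at 35.8 and 56.5 CPM in Hep3B parental, 9.25 and 14.6 CPM in Hep3B-IR and 8.61 and 14.0 CPM in Hep3B-CR libraries. Unlike DUSP4 and DUSP5 it fell in all 4 resistant lines, by 5.52 ± 0.41, 3.98 ± 0.41, 1.86 ± 0.41 and 1.94 ± 0.41 (adjusted p = 6.2e-07, 1.38e-05, 0.0042 and 0.00281). ETV1, the remaining PEA3 factor, also fell in all 4, by 1.16, 1.29, 0.88 and 1.10 ± 0.18 (adjusted p of 0.00016 to 0.00305), from 35.3 and 34.3 CPM in Huh7 parental and 110 and 100 CPM in Hep3B parental libraries. It thus moved against ETV5 in Hep3B. SPRY1 had 33.8 and 33.1 CPM in Huh7 parental, 9.13 and 8.77 CPM in Huh7-IR and 11.96 and 12.3 CPM in Huh7-CR libraries. It fell there as SPRY4 did, by 1.79 and 1.39 ± 0.14 (adjusted p = 1.09e-06 and 1.34e-05), and it fell by 0.45 in Hep3B-CR cells (0.0248) where SPRY4 rose.

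The named relatives that rose were genes of low level. SPRED3 rose in all 4 lines, from 0.131 and 0.0938 CPM in Huh7 parental and 0.283 and 0.281 CPM in Hep3B parental libraries to at most 2.83 CPM (adjusted p of 4.09e-05 to 0.0219). PHLDA2 rose in both resistant Huh7 lines and in Hep3B-CR cells (adjusted p of 0.000317 to 0.0052) and reached 6.28 CPM in Hep3B-CR replicate 1. PHLDA3 was at 0 in both Huh7 parental libraries, which allows up to 0.0437 CPM, and at 6.95 and 1.74 CPM in Huh7-IR libraries. It was called higher in Huh7-IR, Hep3B-IR and Hep3B-CR cells (adjusted p of 0.000387 to 0.0105). DUSP7 and DUSP8 stood at higher levels. DUSP7 was called higher in both resistant Huh7 lines, with 26.6 and 20.6 CPM in Huh7-IR against 6.04 and 4.18 CPM in parental libraries. DUSP8 was called higher in Huh7-IR cells, with 29.4 and 29.2 CPM against 6.74 and 4.23 CPM. Both were called lower in Hep3B-IR cells.

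Other genes induced by ERK signaling, a list of 21 of which 18 passed the filter, had almost no lower call in either line. Higher calls numbered 9 (IR) and 6 (CR) in Huh7 and 8 (IR) and 8 (CR) in Hep3B, where 36%, 24.5%, 18.3% and 23.6% of all genes were higher. The 1 lower call was CCND1 in Hep3B-IR cells, where 21.5%, 16.8%, 13.7% and 15.2% of all genes were lower in the 4 comparisons. CCND1 was also among the higher calls of Huh7-CR cells. In the same order 9, 12, 9 and 10 of the 18 genes were not called. The medians were 0.91, 0.50, 0.81 and 0.61, beside the 0.19, 0.07, 0.06 and 0.11 over all genes. LIF, a cytokine, stood at 2.998 and 2.48 CPM in Huh7 parental, 39.0 and 52.9 CPM in Huh7-IR and 53.1 and 48.2 CPM in Huh7-CR libraries, and at 10.6 and 6.82 CPM in Hep3B parental, 40.0 and 41.0 CPM in Hep3B-IR and 48.9 and 34.4 CPM in Hep3B-CR libraries. It rose by 3.64, 3.79, 2.12 and 2.14 ± 0.28 (adjusted p of 7.62e-07 to 0.000139). HBEGF, a ligand of the EGF receptor, had 4.81 to 5.73 CPM in the parental libraries of both lines and rose by 2.03, 1.68, 1.42 and 2.31 ± 0.18 (adjusted p of 2.8e-06 to 0.000124). ATF3, a stress-induced transcription factor, was higher in Huh7-IR, Hep3B-IR and Hep3B-CR cells (adjusted p of 0.0012 to 0.0284), and its Huh7-IR replicates differed widely, with 141 and 37.0 CPM. DUSP4, DUSP6, SPRY4 and ETV4 thus fell in the same Huh7-IR and Huh7-CR libraries in which LIF and HBEGF rose.

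**Figure D4:**
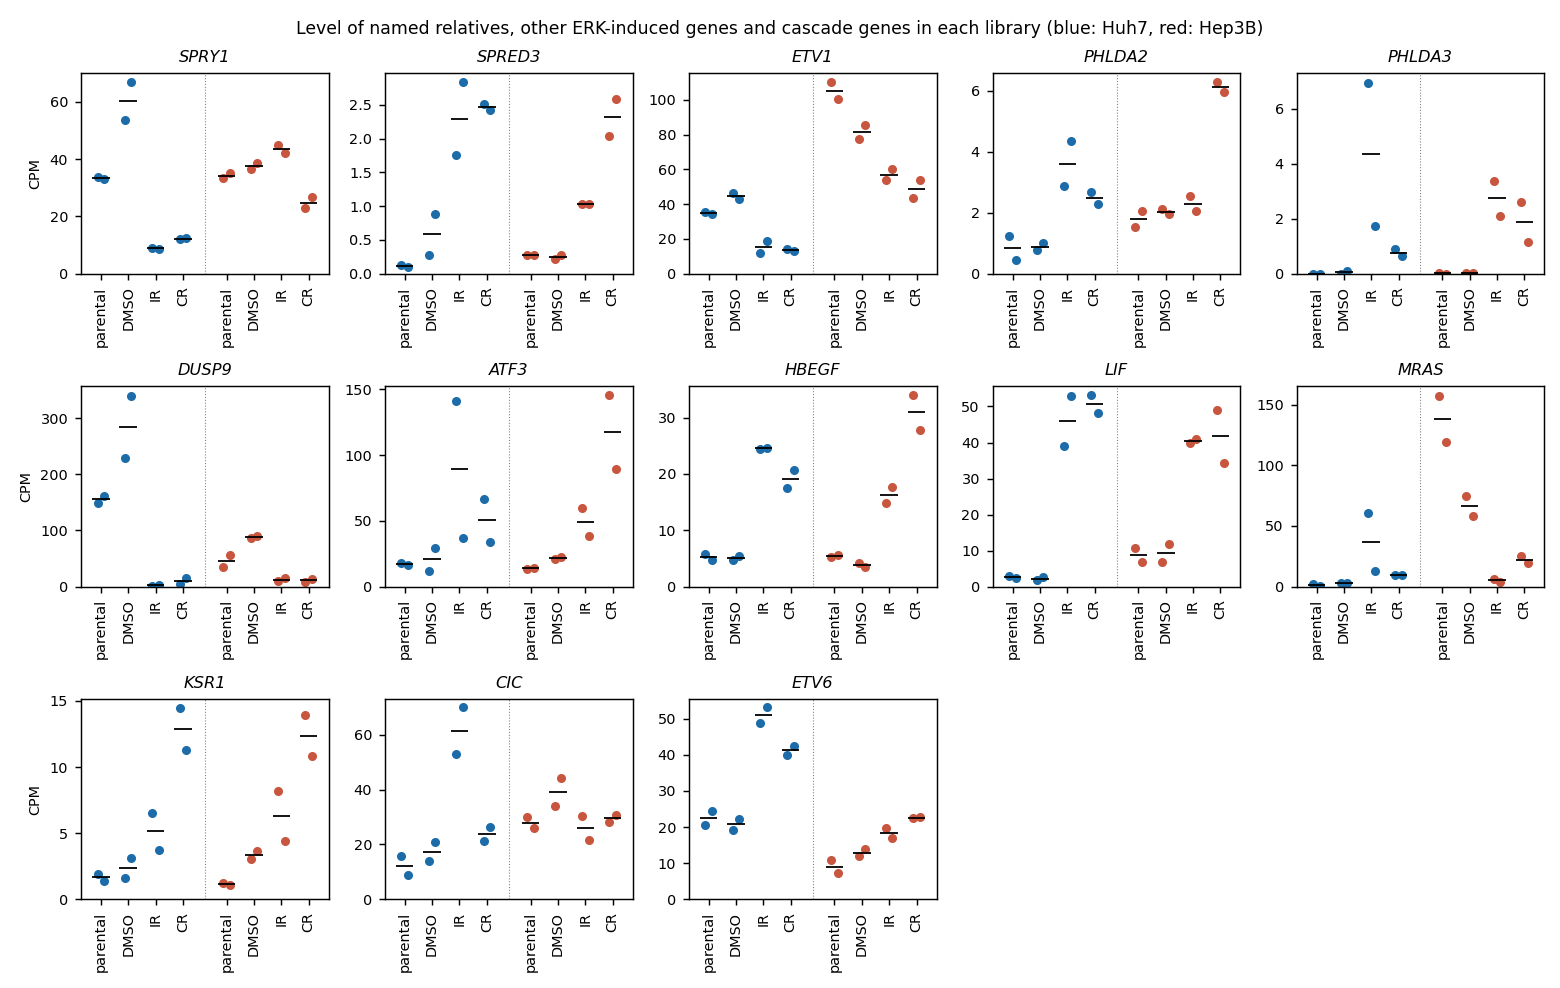
Level in CPM (linear axis from 0, scaled per gene) in the 16 libraries of named relatives of the members (SPRY1 to DUSP9), other ERK-induced genes (ATF3, HBEGF, LIF) and cascade genes (MRAS to ETV6), with a point per library and a black line at the mean of 2 replicates. DUSP9 went from 149 and 162 CPM in Huh7 parental to 1.64 and 3.43 CPM in Huh7-IR libraries, and LIF from 2.998 and 2.48 CPM to 39.0 and 52.9 CPM.

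Genes of the cascade itself, from RAS exchange factors to ERK and the repressors under its control, were a list of 28 of which 27 passed the filter. Higher and lower calls numbered 10 and 4 (Huh7-IR), 7 and 2 (Huh7-CR), 4 and 5 (Hep3B-IR) and 5 and 4 (Hep3B-CR), with medians of 0.18, -0.01, 0.08 and 0.04. Of all genes tested, 36%, 24.5%, 18.3% and 23.6% were higher in these comparisons, and 21.5%, 16.8%, 13.7% and 15.2% lower. KSR1, the scaffold that joins RAF, MEK and ERK, rose in all 4 lines by 1.17, 2.38, 1.72 and 2.64 ± 0.31 (adjusted p of 5.59e-05 to 0.00621), from 1.06 to 1.95 CPM in the parental libraries. ETV6, an ETS repressor, also rose in all 4, by 1.15, 0.85, 0.96 and 1.25 ± 0.19 (adjusted p of 0.000244 to 0.00316). CIC, a repressor of ETV4 and ETV5 that ERK signaling relieves, had 15.8 and 8.85 CPM in Huh7 parental, 52.9 and 69.9 CPM in Huh7-IR and 21.2 and 26.4 CPM in Huh7-CR libraries. It rose by 2.26 ± 0.28 in Huh7-IR (adjusted p = 3.21e-05). In Huh7-CR cells it rose by 0.94 ± 0.28 (adjusted p = 0.0177), and the differences of -0.12 (IR) and 0.08 (CR) in Hep3B did not pass (0.801 and 0.871). MRAS, a RAS relative that acts through SHOC2, turned direction between the lines as DUSP4 did, but the other way. It rose by 3.54 (IR) and 2.05 (CR) ± 0.52 in Huh7, with 61.0 and 13.2 CPM in the Huh7-IR replicates against 2.44 and 0.897 CPM in parental ones, and fell by 4.53 and 2.58 ± 0.52 in the corresponding Hep3B cells from 158 and 119 CPM (adjusted p of 5.64e-05 to 0.00775). Hep3B DMSO libraries held 3.07 and 3.67 CPM of KSR1 and 74.9 and 58.2 CPM of MRAS, between the parental and resistant levels. No cascade gene was called between Hep3B DMSO and parental cells.

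Likeness between genes was measured as the root mean square difference of log2(CPM + 1) values over the 16 libraries, after the mean of each line had been subtracted. By rank DUSP5 and ETV5 were the nearest members, each the second nearest of 15018 genes to the other (0.327). The nearest member to DUSP4 was SPRY4, at rank 36. The nearest member to SPRY4 was DUSP5, at rank 119, and the nearest to ETV4 was SPRY4, also at rank 119. DUSP6 had no member nearer than ETV4, at rank 265. Still further down the ranking stood the nearest members to SPRY2 (SPRED1, rank 476), PHLDA1 (SPRED1, 1083), SPRED1 (PHLDA1, 1303) and SPRED2 (PHLDA1, 7585). The genes nearest to DUSP6 were GIPC2, F7 and CCL15 (0.277 to 0.320). For DUSP4 the nearest were ARSJ, GMDS and EMB (0.417 to 0.496), for SPRY2 CAPG, PTPRM and EPB41L1 (0.220 to 0.268), for SPRY4 NAGS, RPS6KA1 and PRSS3 (0.246 to 0.298), and for ETV4 TBC1D30, DSCAML1 and GNAZ (0.227 to 0.308). The points share their libraries, and the measure is a description with no test.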

How the data were processed

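The 16 samples are single-end RNA libraries of 2 cell lines. They were grouped by their titles into 8 groups of 2. The paper's methods state biological triplicates, poly(A) RNA, a total RNA kit and a HiSeq instrument, and the sample labels poly(A) enrichment, an mRNA kit and a NextSeq instrument. As the methods state, the authors mapped reads to hg19 with STAR, kept unique hits, counted reads over RefSeq exons with QuasR and tested with edgeR. The deposited table holds CPM scaled by the authors to the library total. Its values were whole multiples of 1 read in 100% of cases (tolerance 0.05 reads), which gave totals of 46613302 to 76860251 reads. Precision is set by the 2 replicates rather than by counting, and limits from a count of 0 (3 counts) cover counting error only.

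Entrez numbers were matched to symbols for 26111 of 26258 genes. Values of log2(CPM + 1) of 15019 genes (at least 1 CPM in at least 2 libraries) entered 1 linear model of all 8 groups with 8 residual degrees of freedom (limma 3.58.1 with its trend option; R 4.3.3). Tests were two-sided, p-values were adjusted (Benjamini-Hochberg) over all 15019 genes, and a gene was called at an adjusted p under 0.05. Fold changes are on this scale and understate those of low genes. The steps were run on simulated counts with the same dispersion set for all genes and groups. In the data the spread between replicates differed between groups, so that run does not test the pooled spread. Alternatives were edgeR 4.0.16 and DESeq2 1.42.0 on recovered reads, TMM factors, quantile normalization, pseudocounts of 0.25 and 4 CPM, no filter, a filter at 5 CPM, the libraries of a line alone, a replicate block, the call rule of the methods (unadjusted p under 0.05 and 0.58 on the log2 scale), DMSO cells as reference, and leaving out each library. Same-numbered libraries were not treated as pairs, since not every correlation was above 0.1: the correlation of their deviations ranged from -0.22 to 0.439 over 28 pairs of groups.

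The 10 members, the other lists and the tests were chosen with earlier results of these data known. All members were named. Of each other list, up to 3 genes with the highest and 3 with the lowest mean change were named. These were taken from genes called the same way in at least 2 of the 4 comparisons of resistant with parental cells. The 3 genes nearest to DUSP4, DUSP6, SPRY2, SPRY4 and ETV4 were also named, and for the other members these are not all reported here. Some genes of the cascade list that this rule names are not reported here. Genes outside this rule (CCND1, DUSP7, DUSP8, DCN, CDH5, TEK, CD3E, DHX8, DGKG and PHLDA1-AS1) are named for a count, level or overlap. They were chosen after their values were seen. Of the marker lists, the rule named AFP, TF, APOB, COL1A1, COL1A2, LUM, PDGFRB, PECAM1, PTPRC and CD68. These are given as list sums, except for 4 fibroblast markers and CD68, named because members of their lists moved in opposite directions. Coordinates and exons are of the canonical transcripts in GENCODE v44 lifted to GRCh37.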

Additional observations from a re-analysis of the deposited data

Results flagged for a closer look

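For 8 members the change in resistant cells, taken as the mean of IR and CR cells against parental cells, differed between Huh7 and Hep3B by limma's test of the difference itself. The difference, Huh7 minus Hep3B on the log2 scale, was -3.29 for DUSP4, -2.05 for DUSP5, -1.23 for DUSP6, 1.39 for SPRY2, -2.42 for SPRY4, 0.75 for SPRED1, -2.72 for ETV4 and -2.34 for ETV5, where 31.6% of all genes were called. Under all 23 alternatives run for this comparison DUSP4 ranged from -4.39 to -3.101, SPRY4 from -2.83 to -2.17, ETV4 from -2.92 to -2.38 and ETV5 from -2.58 to -2.11, and each of these 4 stayed past the threshold. No group had enough libraries to be searched for a single outlying one.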

How the results depend on the processing

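Of 1610 values of the members' changes under alternatives, 1511 kept their side of the threshold, 66 lost the call, 33 gained it, and none that was called changed sign. For the 4 comparisons of resistant with parental cells these were 601, 26 and 13 of 640. With DMSO cells as reference 10 members were called in Huh7-CR cells, where 41.8% of all genes were. Whether this count rests on a single DMSO library was not tested. In Huh7 DMSO cells the count of 2 became 5 under the call rule of the methods, 4 under DESeq2, 1 without a filter and 0 with the libraries of Huh7 alone. In Hep3B DMSO cells the count of 1 became 3 under that rule and 2 under DESeq2 or with the libraries of Hep3B alone. Between Huh7-IR and Huh7-CR cells the count of 1 became 2 under that rule and 0 under edgeR, TMM factors, quantile normalization, a pseudocount of 4 CPM, no filter or Huh7 libraries alone, and DESeq2 called 1 and 3 members had an unadjusted p under 0.05 in limma. Between Hep3B-IR and Hep3B-CR cells the count of 1 became 2 under that rule and 3 with the libraries of Hep3B alone.

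Leaving out 1 library gave 6 to 7 members in Huh7-IR, 5 to 6 in Huh7-CR, 4 to 5 in Hep3B-IR, 3 to 6 in Hep3B-CR, 0 to 7 in Huh7 DMSO, 1 in Hep3B DMSO, 0 to 1 between Huh7-IR and Huh7-CR, 1 between Hep3B-IR and Hep3B-CR, 6 to 9 for the difference between lines and 5 to 9 between parental lines. Where this leaves a group with 1 library, that library is assumed to vary like the other groups, and fewer libraries leave less power. The share of all genes called in these fits is given for Huh7 DMSO cells only. Elsewhere a shift of the members cannot be told from a general one. The cause of the other shifts was not tested.

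With the replicate number as a block the counts were as reported, except that 8 instead of 9 members were called between the parental lines, where PHLDA1 was lost (adjusted p = 0.0534). Of 28 pairs of groups, 13 had a correlation of same-numbered deviations above 0.1 (median 0.0733), among them all 3 pairs of Hep3B parental, IR and CR cells (0.209 to 0.257), Huh7-IR with Huh7-CR (0.439) and both DMSO groups (0.415). No label says what a number shares, and whether some same-numbered libraries share a batch was not tested. Quantile normalization moved the share of higher genes among all called by over 10 percentage points also in Huh7 DMSO (69.4% to 55.3%), in Hep3B DMSO (67.6% to 52.7%) and between Huh7-IR and Huh7-CR cells (60.3% to 47.9%; 46.5% with TMM factors). Over all genes, edgeR on the recovered reads called 8619, 6417, 4831 and 5770 in the 4 comparisons of resistant with parental cells (Huh7 first, IR before CR), beside 8635, 6207, 4811 and 5820 by limma. With the libraries of a line alone limma called 4041 in Huh7-CR cells. For Huh7 DMSO cells limma called 778, DESeq2 2178 and the fit of Huh7 alone 29. For Hep3B DMSO cells these were 247, 647 and, for Hep3B alone, 671, with 77 by edgeR and 147 at the filter of 5 CPM. Between IR and CR cells the fit of a line alone called 194 in place of 2407 in Huh7 and 3941 in place of 2054 in Hep3B.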
